A study of Mus musculus with 101 samples.

Results

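The 8 target regions that the authors placed in the category germline_GGD were described here, out of 868 regions in the deposited table. They overlap Dazl, Ddx4, Mael, Mov10l1, Piwil2, Slc25a31, Taf7l and Tex19.1. Members were taken by the category name alone, and the sources used here do not spell out its letters. All 8 regions had a value in every one of the 85 columns, so all 8 passed the filter on missing values, which kept 787 regions. A second deposited table of 7917 single CpGs held 155 CpGs inside 6 of the regions, and none inside those of Piwil2 and Taf7l.

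The lines were mouse embryonic stem cells from the Diversity Outbred stock, whose animals descend from several inbred founders. The culture medium of every line held serum, LIF and 2i (inhibitors of MEK and GSK3 that keep such cells naive), and genomic DNA was assayed by enzymatic methyl sequencing after hybrid capture. The groups were the prefixes of the line names, with 28 columns for B1, 18 for B2, 20 for B3A and 19 for B3B, and the sources used here do not say what a prefix stands for. They also do not give genotype, sex or passage of the lines, and each column was treated as a line.

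Several facts of the whole series touch every value below. Of the 85 columns, 31 carried a final N in their name, and these were 6 of B1, 0 of B2, 16 of B3A and 9 of B3B. A further label, 2 titles for 1 line, touched 16 columns, of which 6 were among those with a final N. The names B1_B37 and B1_B37N differ only in the final N, so 1 line may be counted in 2 columns. The mean over the 779 kept regions outside the category, called the line level here, was 18.99% ± 10.1 (SD, n = 85) and ran between 3.02% and 43.7%. B1 lines averaged 24.5%, B2 lines 20.7%, B3A lines 12.8% and B3B lines 15.8%. Of 8 naive-state markers looked up, only Zfp42 and Tbx3 had a region that overlapped the gene. Methylation there was 0.792% ± 1.44 (SD, n = 80) and 0.191% ± 0.381 (SD, n = 83). Regions outside the bounds of the other markers were not matched to them, so their levels are not given.

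Genes of the germline are silenced in most cells by methylation of CpG-rich promoters. Naive stem cells in 2i lose much of their DNA methylation, and some germline genes are transcribed when their promoters are stripped of it. In mouse stem cells the same promoters are also bound by a repressor complex that contains E2F6 and the pair MGA and MAX, which read an E2F6 site and an E-box. A methylation level is an average over the cells of a culture, so fewer methylated cells and partial methylation in every cell cannot be told apart.

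Of the members, Piwil2, Mov10l1, Mael, Ddx4 and Tex19.1 have known roles in the control of transposons in germ cells. Piwil2 is a PIWI protein that binds piRNAs, Mov10l1 is the helicase that feeds precursors into piRNA production, and Mael and Ddx4 (also called Vasa) act in the granules where piRNAs are made. Tex19.1 restrains retrotransposons in germ cells and placenta. The others are germline genes of other kinds. Dazl is an RNA-binding protein that promotes translation in germ cells, Slc25a31 is the testis form of the mitochondrial ADP/ATP carrier, and Taf7l is a germ cell form of a subunit of the basal transcription factor TFIID.

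The promoter of Dazl is shown because it holds the most methylated CpG of its region, that of Slc25a31 because it holds a sharp step between neighbouring CpGs, that of Mael because its measured CpGs sat near the gene start, and that of Tex19.1 because it was the least methylated. Each is the 250 bases before the start in the RefSeq promoter table of GRCm38.p6, read 5′ to 3′ along the gene, and capitals mark the CpGs measured in the CpG table.
Dazl (chr17:50293621-50293870, minus strand): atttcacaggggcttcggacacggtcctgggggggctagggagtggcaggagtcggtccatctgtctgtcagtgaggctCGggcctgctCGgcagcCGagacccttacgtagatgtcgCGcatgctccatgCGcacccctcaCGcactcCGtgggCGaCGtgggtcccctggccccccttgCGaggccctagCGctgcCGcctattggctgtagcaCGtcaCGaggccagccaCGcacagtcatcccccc
Slc25a31 (chr3:40708621-40708870, plus strand): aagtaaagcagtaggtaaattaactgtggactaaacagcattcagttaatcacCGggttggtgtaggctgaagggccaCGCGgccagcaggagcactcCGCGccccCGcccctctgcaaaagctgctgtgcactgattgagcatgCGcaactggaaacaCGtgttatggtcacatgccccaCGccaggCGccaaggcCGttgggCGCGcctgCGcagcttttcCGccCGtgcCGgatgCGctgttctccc
Mael (chr1:166238745-166238994, minus strand): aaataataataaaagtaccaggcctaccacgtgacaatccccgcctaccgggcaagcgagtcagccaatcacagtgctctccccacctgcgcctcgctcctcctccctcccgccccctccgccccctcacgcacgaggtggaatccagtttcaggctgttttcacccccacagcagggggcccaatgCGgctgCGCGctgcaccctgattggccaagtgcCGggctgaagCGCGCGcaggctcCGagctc
Tex19.1 (chr11:121145893-121146142, plus strand): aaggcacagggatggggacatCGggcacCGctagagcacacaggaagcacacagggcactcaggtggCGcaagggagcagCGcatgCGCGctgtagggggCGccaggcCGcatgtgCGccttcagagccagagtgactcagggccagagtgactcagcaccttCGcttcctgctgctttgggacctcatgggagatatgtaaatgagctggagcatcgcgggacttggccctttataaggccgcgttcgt
Of the 20 CpGs in the Dazl sequence 15 were in the CpG table, as were all 18 in that of Slc25a31. Only 8 of 18 were measured in the Mael sequence and 10 of 15 in that of Tex19.1.

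Methylation of the members ranged widely, with the basal transcription factor gene Taf7l at the top and Tex19.1 at the bottom. The Taf7l region (mm10, chrX:134476240-134476740, across the gene start) averaged 39.2% ± 16.9 (SD, n = 85), with a lowest value of 1.48%, a median of 38.5% and a highest value of 77.0%. It was the one member with over 50% in many lines, 25 of 85.

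Slc25a31, Dazl and Mov10l1 formed a middle group with nearly the same mean. The Slc25a31 region (chr3:40708604-40709104) averaged 27.5% ± 13.4 (SD, n = 85), with a lowest value of 3.54%, a median of 25.3% and a highest value of 62.0%. The Dazl region (chr17:50293386-50293886) averaged 26.1% ± 13.9, with 3.25%, 23.7% and 62.3% as its lowest, median and highest values. The Mov10l1 region (chr15:88982658-88983158), which also overlaps the gene Mlc1, averaged 25.9% ± 12.6, with 3.31%, 23.4% and 56.8%. Their ranges overlapped almost wholly.

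The 4 other regions were lower. They belong to genes with transposon roles, as does Mov10l1 of the middle group. The Piwil2 region (chr14:70428844-70429344) lies inside the gene, away from any start in the promoter table, and averaged 17.4% ± 11.4 (SD, n = 85; lowest 2.72%, median 14.7%, highest 46.8%). The Mael region (chr1:166238497-166238997) averaged 12.99% ± 7.57 (lowest 3.19%, median 11.3%, highest 38.9%). The Ddx4 region (chr13:112652225-112652725) averaged 9.87% ± 4.58 (lowest 1.28%, median 8.80%, highest 24.3%). None of these 3 passed 50% in any line.

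Tex19.1 (chr11:121145892-121146392) was the least methylated, at 6.36% ± 5.27 (SD, n = 85), with a median of 4.97% and a highest value of 26.5%. In 1 line, B3A_29N, it was listed at 0. It lay under 10% in 70 of 85 lines, and Ddx4 did so in 49 and Mael in 36, against 3 lines for Taf7l. Relative to its mean Tex19.1 varied most, with a coefficient of variation of 82.8%, and Taf7l least, with 43.2%.

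The order was tested within lines, with 28 pairs of members compared by a two-sided sign-flip permutation test and p-values adjusted over the 28 pairs. Of these, 27 differed. Dazl and Mov10l1, neighbours in the order, differed by 0.17 points (SD 5.29, Dazl higher in 41 of 85 lines, adjusted p = 0.764). Slc25a31 exceeded Dazl by 1.38 points (SD 4.79, higher in 49 lines, adjusted p = 0.00954), a difference of 0.65 points that missed the threshold in the 54 columns without a final N (adjusted p = 0.267). Slc25a31 and Mov10l1 likewise missed it there (0.98 points, adjusted p = 0.152).

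The median of the 8 means was 21.7%, beside 16.7% over the 115 kept regions of the category germline_Dahlet and 15.7% over all 787 kept regions. Set against the line level of the same line, the members fell on both sides. Taf7l exceeded it by 20.2 points (SD 8.71, higher in 84 of 85 lines), Slc25a31 by 8.49 points (SD 4.67, 83 lines), Dazl by 7.10 points (SD 5.28, 80 lines) and Mov10l1 by 6.93 points (SD 4.13, 83 lines). These 4 were above at an adjusted p of 1.12e-05 each (sign-flip permutation test, adjusted over all 787 regions, with the unadjusted p of 1e-05 the smallest that the permutations can give). Above the line level were 42.3% of all kept regions by the same test, and below it 53%.

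Tex19.1 lay below the line level with a mean difference of -12.6 points (SD 8.23, higher in 1 of 85 lines), as did Ddx4 with -9.12 points (SD 6.32, higher in 4 lines), each at an adjusted p of 1.12e-05. Mael was also below in percent, at -5.996 points (SD 5.89, higher in 14 lines, adjusted p = 1.12e-05), but on the log odds scale its mean difference was 0.11 above and missed the threshold (adjusted p = 0.0560). Piwil2 was at -1.56 points in percent (SD 5.43, higher in 33 lines, adjusted p = 0.0102) and 0.50 above on the log odds scale (adjusted p = 1.13e-05), so its direction depended on the scale.

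**Figure D1:**
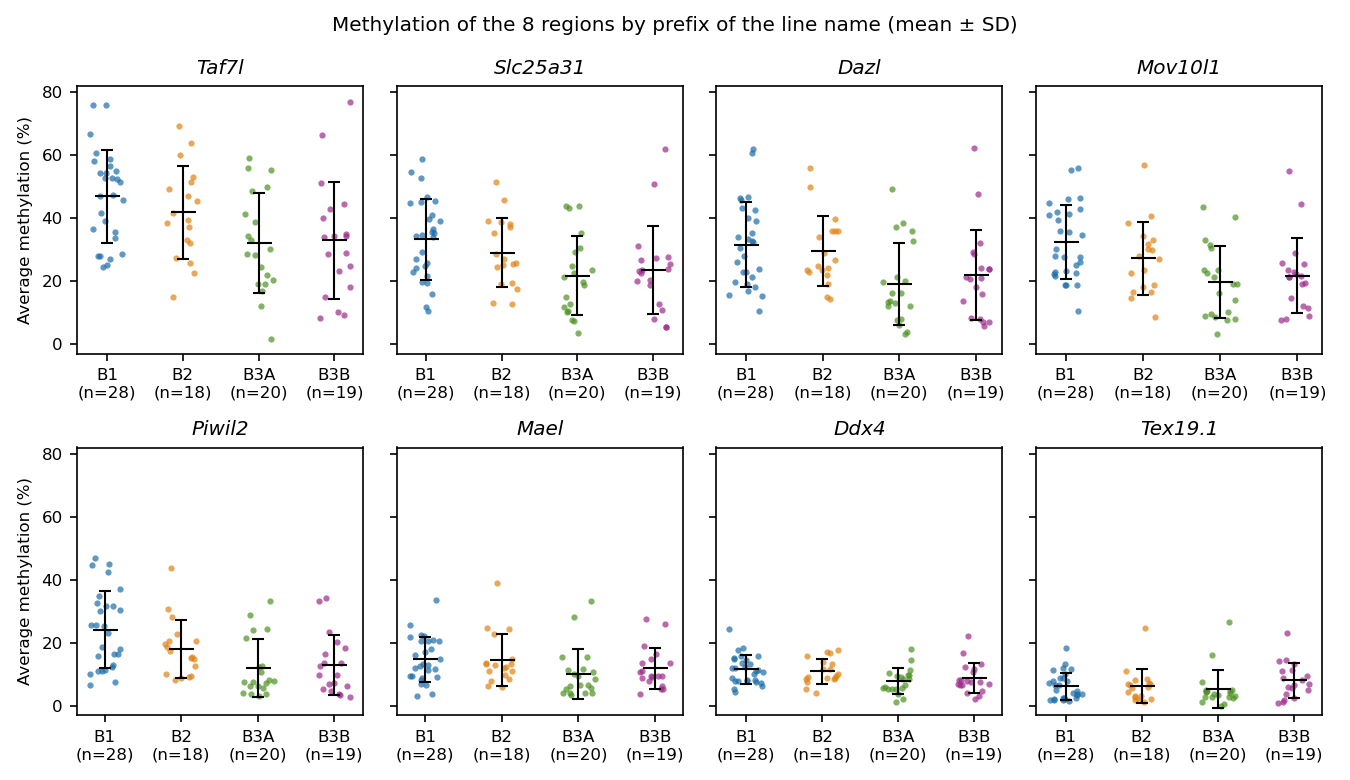
Average methylation in percent (vertical axis) of each member region in each line, by prefix of the line name (horizontal axis); points are lines and black marks are the mean ± SD. Taf7l reached 77.0% and Tex19.1 no more than 26.5%, and B3A had the lowest mean at all 8 regions.

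Single CpGs gave the same regions a fine structure that their averages hide. Within the 6 regions with listed CpGs, positions are given from the gene start in the promoter table, negative before it. At Dazl the mean CpG level ran between 5.49% ± 6.83 at 159 and 58.5% ± 20.5 at -118 (SD, n = 85 each). The most methylated of its CpGs exceeded the least methylated one in all 85 lines. The largest step between neighbours was from 48.3% ± 21.6 at 61 to 14.8% ± 11.7 at 70, a distance of 9 bases, and it ran the same way in 85 of 85 lines.

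Slc25a31 showed a similar step before its start. The CpG at -105 averaged 40.2% ± 18.6 and the next one, 14 bases on at -91, averaged 5.04% ± 4.10 (SD, n = 85 each), lower in 84 of 85 lines. That CpG was the least methylated of the 32 in the region, whose highest was 45.7% ± 19.3 at 185. The CpG at -91 lies in the sequence CACGTG, read as caCGtg in the sequence above. It was the first of a low stretch, since the CpGs from -69 to -44 had means between 7.23% ± 5.97 and 13.2% ± 9.75. At -38 the mean was 24.2% ± 16.4 (SD, n = 85 each).

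Mov10l1 resembled Dazl and Slc25a31, with a highest CpG of 55.7% ± 20.2 at -293 and a lowest of 8.34% ± 7.71 at -81 (SD, n = 85 each). Its CpG at -23 averaged 45.04% ± 19.5 and the one 16 bases before it 8.78% ± 7.47, in that order in all 85 lines. Such steps were chosen as the largest of each region and carry no test.

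The 3 lowest regions were flatter at the CpGs that were measured. The CpGs of Ddx4 ran between 1.08% ± 1.85 at -26 and 14.6% ± 9.77 at -99 (SD, n = 85 each), and 25 of its 30 had means under 10%. Their median was 4.85%, below the deposited Ddx4 average of 9.87%, and CpGs outside the table were not analysed here. The Ddx4 and Mov10l1 starts in the promoter table lie inside the outer bounds of those genes. The CpGs of Mael ran between 3.13% ± 3.65 at 62 and 22.5% ± 14.04 at 145, and 17 of 28 were under 10%. At Tex19.1 all 10 CpGs were under 10%, the lowest 2.42% ± 2.84 at -150 and the highest 6.98% ± 7.04 at -183, with the highest above the lowest in 67 of 85 lines. These 10 lie between -229 and -87, so the rest of the Tex19.1 region is not seen here. The median CpG was below the deposited average at Mael (7.64% beside 12.99%) and Tex19.1 (3.97% beside 6.36%) as well.

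A pair of motifs was searched on both strands of each promoter (250 bases before and 50 after the start), for the 7 members in the promoter table. CACGTG, the E-box read by MAX and its partners, was found in 5 of the 7 (Ddx4, Mael, Mov10l1, Slc25a31 and Taf7l) and in 7.15% of all 32851 promoters of the table. In both Slc25a31 and Ddx4 the CpG at the heart of this motif was the least methylated of the region. It had 5.04% among 32 CpGs at Slc25a31 and 1.08% among 30 at Ddx4. The rank at Ddx4 rests on values near 0, with the motif CpG at 0 in 58 of 85 lines. CpGs beside it were nearly as low, with 1.66% ± 2.37 at -34 and 2.02% ± 2.53 at -18 (SD, n = 85 each). At Mov10l1 the motif CpG was the eighth lowest of 21, with 14.6% ± 12.003 (SD, n = 85), and at Mael and Taf7l it was not measured. TCCCGC, the core of the E2F6 site, was found in Ddx4, Mael, Slc25a31 and Tex19.1 and in 19.98% of all promoters, and its CpG ranked 17 from the lowest in each of Ddx4, Mael (the site at 11) and Slc25a31. The 2 motifs do not overlap, members were not matched to other promoters for CpG content, and whether either motif bears on the levels was not tested.

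**Figure D2:**
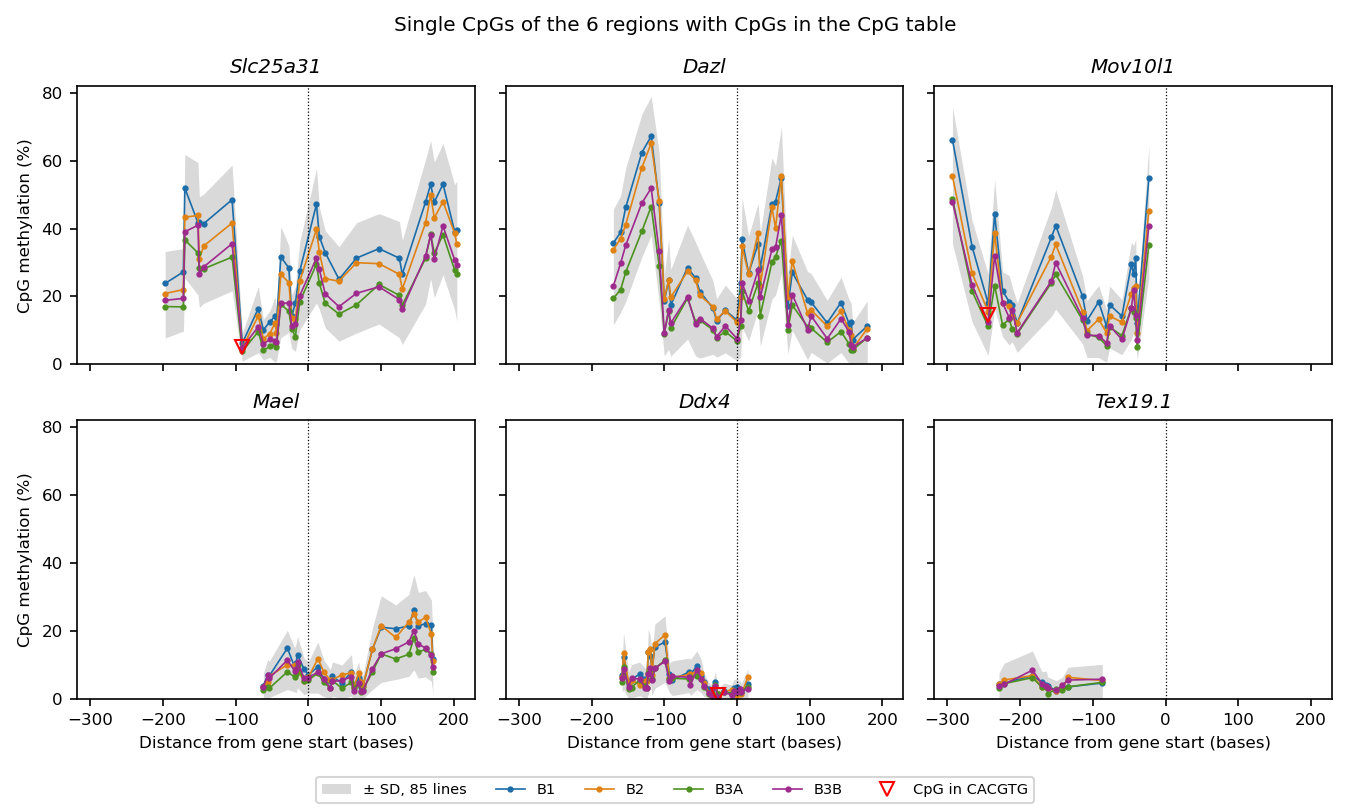
Mean methylation in percent (vertical axis) of each listed CpG against its distance in bases from the gene start (horizontal axis, dotted line at the start) in 6 member regions; coloured lines are prefix means, grey is the mean ± SD over 85 lines, and red triangles mark a CpG inside CACGTG. The triangle sits at the lowest CpG of Slc25a31 (5.04%) and of Ddx4 (1.08%), with other low CpGs near it in both regions. The coloured lines follow similar courses but cross at some CpGs.

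Lines with high methylation over the whole panel had high methylation at the members. Across the 85 lines the correlation with the line level was strongest at Slc25a31 (Pearson r = 0.959, Spearman rho = 0.954), Mov10l1 (0.957 and 0.950) and Dazl (0.954 and 0.942). It was lower at Taf7l (r = 0.915, rho = 0.915), Ddx4 (0.893 and 0.889), Piwil2 (0.879 and 0.874) and Mael (0.813 and 0.831), and lowest at Tex19.1 (0.578 and 0.595). All 8 were called by a permutation test (p = 1e-05 for each r and rho, the smallest 100000 permutations can give, adjusted p over 787 regions 1.14e-05 for r and 1.16e-05 for rho), as were 95% of all kept regions. When the 2 lines with the most extreme line levels were left out, r stayed between 0.560 at Tex19.1 and 0.954 at Slc25a31. The median r was 0.904 over the members, 0.891 over germline_Dahlet and 0.872 over all kept regions.

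The slopes on the line level, given without a test between members, spread around 1 point per point. For each point of line level the fitted change was 1.54 points at Taf7l, 1.32 at Dazl, 1.27 at Slc25a31, 1.19 at Mov10l1 and 0.997 at Piwil2. It was 0.612 at Mael, 0.406 at Ddx4 and 0.303 at Tex19.1. Within single prefixes r at Tex19.1 ran between 0.424 in B2 (n = 18) and 0.836 in B3B (n = 19), and at Dazl between 0.937 in B3A (n = 20) and 0.968 in B3B. In the 31 columns with a final N and the 54 without, r was 0.923 and 0.969 at Dazl and 0.579 and 0.579 at Tex19.1.

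**Figure D3:**
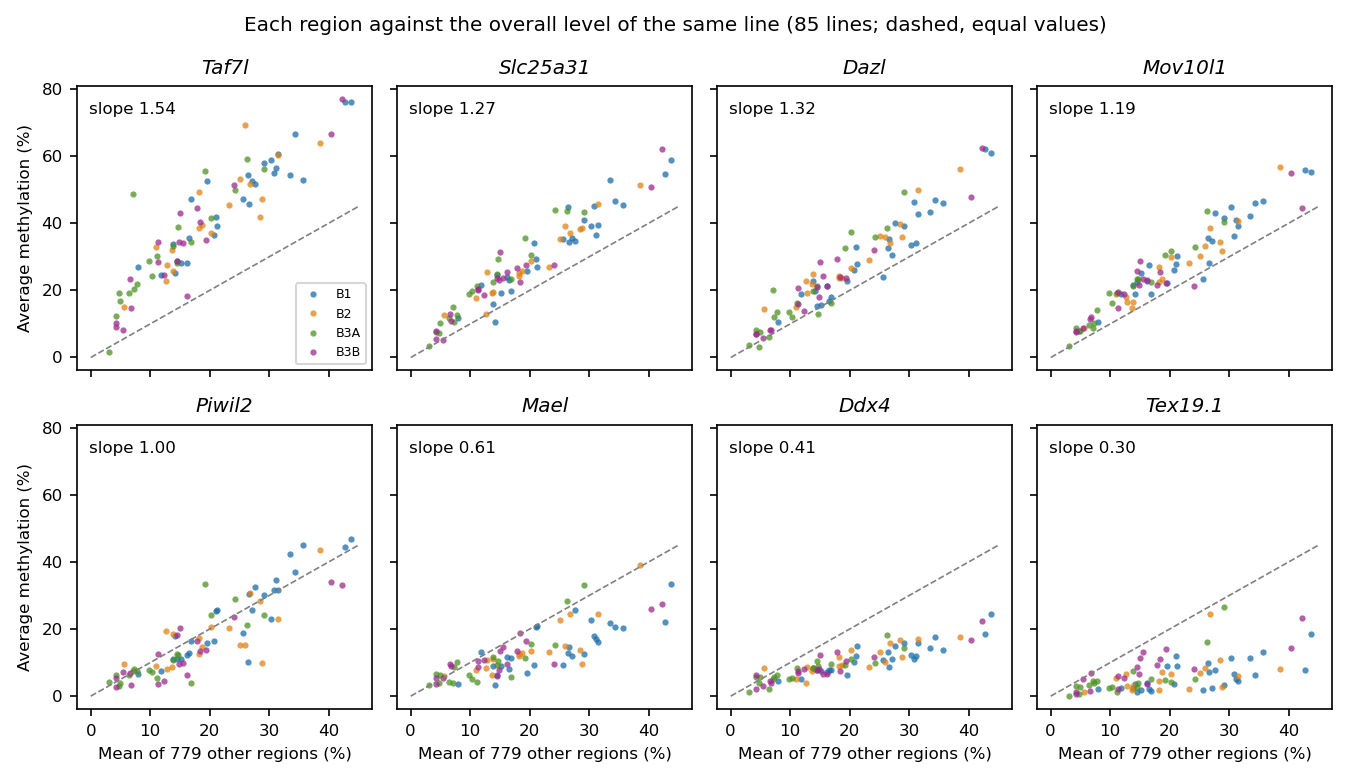
Average methylation in percent of each member (vertical axis) against the mean of the 779 kept regions outside the category in the same line (horizontal axis, percent); points are 85 lines coloured by prefix, and the dashed line marks equal values. Slopes run between 1.54 at Taf7l and 0.30 at Tex19.1, and 1 B3A line stands far above the others at Taf7l.

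A few lines set the ends of these ranges. The line with the lowest line level, B3A_29N (3.02%), had the lowest value at 5 members. The lines with the 3 highest line levels, B1_C17 (43.7%), B1_A5 (42.7%) and B3B_8 (42.3%), were also the 3 highest at Dazl, Ddx4, Slc25a31 and Taf7l.

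Other lines left the trend at 1 or a few members, and they were named after their values were seen. B3A_26N had 48.7% at Taf7l with a line level of 7.10%, where the straight-line fit gives 20.9%, a gap of 27.8 points against a residual SD of 6.87. The same line had 8.84% at Mov10l1 and 20.1% at Dazl. B3A_37N had the highest Tex19.1 value, 26.5% where the fit gives 9.41%, and lay above the fit at Dazl too, with 49.3% against 39.4%. B2_7 went the other way and was the farthest below the fit at Mael, Piwil2 and Tex19.1, with 10.01% at Piwil2 where the fit gives 27.2%. Depth per line is unknown, and its part in these values was not tested.

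Methylation at most members was higher in B1 and lower in B3A. The mean was highest in B1 at 7 of the 8 members and in B3B at Tex19.1, and it was lowest in B3A at all 8. The moderated F test of limma over the 4 prefixes called 6 of 8 members at an adjusted p below 0.05, against 81.6% of all 787 kept regions, a share near that of the members. The adjusted p was 2.77e-04 at Piwil2, 0.00126 at Mov10l1, 0.00137 at Dazl, 0.00469 at Taf7l, 0.00746 at Slc25a31 and 0.0107 at Ddx4. Mael (0.0509) and Tex19.1 (0.276) missed the threshold.

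Piwil2, with the smallest adjusted p, ran between 6.51% and 46.8% in B1 (median 24.2%) and between 8.01% and 43.6% in B2 (median 16.4%). For B3A the range was 3.01% to 33.3% (median 7.60%), and for B3B it was 2.72% to 34.05% (median 9.83%). The prefixes overlapped over most of their range, with medians higher in B1 and B2. B1 exceeded B3A by 12.1 points in the mean, 1.30 ± 0.30 in log2 odds (SE, adjusted p = 6.77e-04, limma contrast adjusted over all regions and 6 contrasts), and B3B by 11.2 points (1.18 ± 0.30, adjusted p = 0.00192).

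Dazl lay between 10.6% and 62.1% in B1 lines (median 31.5%) and between 14.5% and 56.0% in B2 lines (median 25.8%). The B3A lines ran between 3.25% and 49.3% (median 14.9%), and the B3B lines between 5.88% and 62.3% (median 21.1%). These ranges overlapped as well, although no B1 or B2 line fell below 10%. The mean in B1 was 31.6%, against 19.03% in B3A (1.14 ± 0.30 in log2 odds, SE, adjusted p = 0.00283 by limma).

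Ddx4 spanned 4.403% to 24.3% in B1 (median 11.1%) and 3.94% to 17.5% in B2 (median 9.68%). It spanned 1.28% to 18.1% in B3A (median 7.39%) and 2.14% to 22.2% in B3B (median 7.62%). Its spread between prefixes was small in points, since the region is low throughout. Its mean was 11.5% in B1, against 7.78% in B3A (0.63 ± 0.20 in log2 odds, SE, adjusted p = 0.0124 by limma).

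Counting only contrasts past the threshold, B1 was called higher than B3A at 7 of 8 members, all but Tex19.1, against 80.8% of all kept regions. B1 was called higher than B3B at 5 (Dazl, Mov10l1, Piwil2, Slc25a31 and Taf7l), against 60.2% of all. B2 was called higher than B3A at 3 (Dazl, Ddx4 and Piwil2), against 59.6%. With an offset of 0.05 in the log odds, Ddx4 (adjusted p = 0.0516) and Piwil2 (0.0608) missed the threshold for B2 against B3A by limma. No member was called for B1 against B2, where 2.16% of all regions were called higher and 0.127% lower. Nor was any called for B2 against B3B, where 10.8% were called higher, or for B3A against B3B, where 1.65% were called lower.

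The final N was spread unevenly over the prefixes, so values are given within each kind of column. In the columns with a final N, Dazl averaged 31.9% in B1 (n = 6), 20.8% in B3A (n = 16) and 22.96% in B3B (n = 9). Without it, B1 averaged 31.6% (n = 22), B2 29.6% (n = 18), B3A 11.9% (n = 4) and B3B 21.2% (n = 10). In the columns without a final N alone, 5 of 8 members were called by limma, against 67.3% of all regions, and Ddx4 was lost (adjusted p = 0.0715). Lines with 2 titles had a higher mean at every member in B1, B2 and B3B. In B1 it was 24.1% at Mael (n = 5) beside 12.7% in the other B1 lines (n = 23), and 42.7% beside 29.2% at Dazl. B3A lines did not all go that way, with 18.1% at Dazl (n = 4) beside 19.3% (n = 16). These differences were not tested. Without lines of 2 titles 6 members were called, against 69.6% of all regions.

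Once the line level entered the fit as a covariate, Tex19.1 was the single member called. Its adjusted p was 0.00732, and 27 of 787 regions (3.43%) were called in all. Of the 10 measured Tex19.1 CpGs, which lie between -229 and -87, none was called with the covariate. The covariate was fitted with the offset of 0.01 alone, and Tex19.1 levels were low, with a median of 4.97% over all lines. The B1 lines averaged 6.14% ± 4.34 at Tex19.1 (SD, n = 28), the B2 lines 6.14% ± 5.35 (n = 18), the B3A lines 5.25% ± 5.99 (n = 20) and the B3B lines 8.05% ± 5.63 (n = 19). It ran between 1.31% and 18.4% in B1 (median 4.73%) and between 0.746% and 23.2% in B3B (median 6.99%), ranges that overlapped nearly in full. At a given line level B1 minus B3B was -1.07 ± 0.22 in log2 odds (SE, adjusted p = 0.00804 by limma, lower in B1), a contrast called in that direction at 0.508% of regions. Without the covariate B1 was also lower, but the contrast was not called (-0.32 in log2 odds, adjusted p = 0.397 by limma). Means went that way in both kinds of column. With a final N they were 4.44% in B1 and 7.69% in B3B, and without it 6.61% and 8.37%. The covariate was not fitted within either kind of column. In the fit with the covariate over all columns, the other 7 members had adjusted p-values between 0.165 (Slc25a31) and 0.563 (Ddx4).

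Most of the member CpGs called between prefixes lay in Dazl, Slc25a31 and Mov10l1. The limma F test called 64 of the 155 member CpGs, against 45.2% of all 7917 CpGs. These were 23 of 34 at Dazl, 20 of 32 at Slc25a31 and 14 of 21 at Mov10l1. In the low regions they were 4 of 28 at Mael, 3 of 30 at Ddx4 and 0 of 10 at Tex19.1. With the line level as a covariate none of the 155 was called, and 0.177% of all CpGs were. In the columns without a final N 24 member CpGs were called, against 22.7% of all CpGs, and in the lines without 2 titles 28, against 29.2%.

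Beyond the line level the members varied together in a few pairs only. After each member's log odds were regressed on the mean log odds of the other kept regions, 5 of 28 pairs had correlated residuals at an adjusted p below 0.05 over the 28 pairs (permutation test). Slc25a31 and Taf7l had r = 0.450 and rho = 0.381 (n = 85, permutation test, adjusted p 9.80e-04 and 0.00327). Mael and Tex19.1 had r = 0.438 and rho = 0.409 (adjusted p 9.80e-04 and 0.00327 by permutation), and Mov10l1 and Slc25a31 had r = 0.409 and rho = 0.398 (0.00131 and 0.00327). These were the pairs with the clearest values.

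Dazl and Slc25a31 (r = 0.292, rho = 0.320) and Dazl and Ddx4 (r = 0.291, rho = 0.280) were close to the threshold, each with an adjusted p of 0.0383 for r by permutation, and for rho 0.0218 and 0.0516. Leaving out the 2 lines whose first-member residual was most extreme moved the 5 values of r to between 0.257 and 0.414. Among all 309291 pairs of kept regions 5.24% had a residual r at least as high as the smallest called one, and among the 6555 pairs of germline_Dahlet regions 6.58% did. With residuals also centred within each prefix, Dazl with Slc25a31 (adjusted p = 0.0628, permutation test) and Dazl with Ddx4 (0.0785) missed the threshold, and the other 3 pairs passed it. No pair was called in the 54 columns without a final N, where the 5 values of r ran between 0.220 and 0.389.

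**Figure D4:**
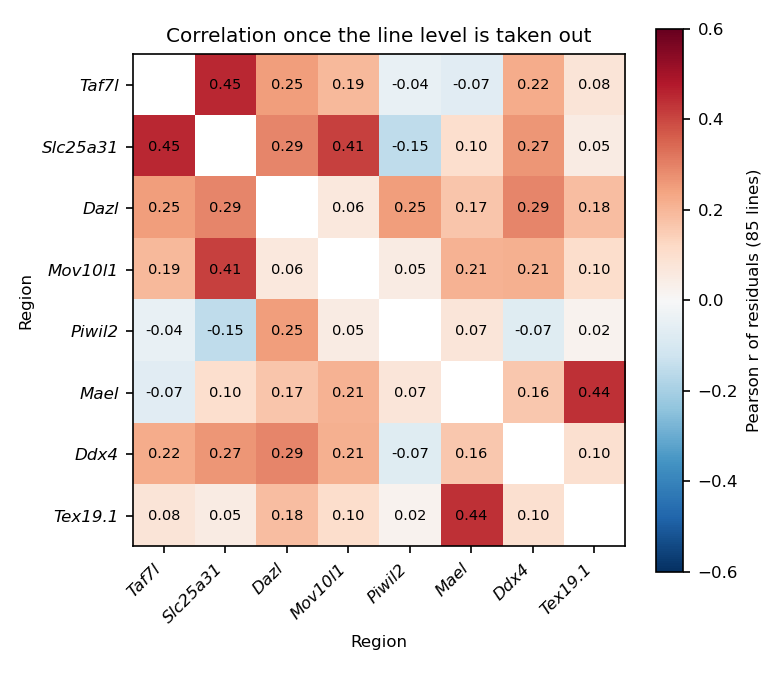
Pearson r between members (rows and columns) across 85 lines, after each member's log odds were regressed on the line level; colour and printed value give r. The highest values are 0.45 for Slc25a31 with Taf7l, 0.44 for Mael with Tex19.1 and 0.41 for Mov10l1 with Slc25a31.

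The regions most like each member were picked from the 779 others, so their values are descriptions. In percent the region most like Ddx4 lay at Adad2, a testis gene of the adenosine deaminase family (r = 0.911). An Adad2 region that shares bases with that one was the runner-up for Dazl (r = 0.957). It came after a region of chromosome 17 that overlaps no gene (0.958). Slc25a31 was most like Noxa1 (0.959), Mov10l1 like Rin3 (0.952), Taf7l like Slc3a1 (0.925, n = 80) and Piwil2 like Dtx1 (0.894). Mael was most like Prr23a2 (0.891) and then Topaz1, a germ cell gene (0.876), and Tex19.1 was most like a region shared by Awat2 and Otud6a (0.730, n = 84).

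In the residuals the leading region was that of Boll, a germline relative of Dazl, for both Dazl (r = 0.448) and Ddx4 (0.386). Mov10l1 was closest to Sycp3, a protein of the meiotic chromosome axis (0.432), Mael to Fam178b (0.557), Piwil2 to Mcur1 (0.408) and Tex19.1 to Topaz1 (0.392). For Slc25a31 the 2 leading regions were of imprinted loci, Peg13 (within Trappc9, 0.547) and Gnas (0.529). Taf7l was led by the X-linked 1700013H16Rik (0.419, n = 77), followed by imprinted Meg3 (0.419) and Peg13 (0.414).

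Other germline genes of a list chosen for this comparison stood on both sides of the members. Without the members, 34 of the 74 listed genes had a kept region, 35 regions in all. Of these 32 were called between prefixes, against 81.6% of all kept regions. With the line level as a covariate 2 were called, against 3.43% of all. The list was not compared with the other regions by a test. The median level of the 35 regions was 13.1%. The 8 regions of the piRNA and transposon list had a median of 17.8% and ran between 5.57% and 39.6%. The 15 regions of meiosis genes had a median of 8.96% and the 12 of other germline genes 23.4%.

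The highest of these were Cox7b2, a testis form of a respiratory subunit (50.3% ± 23.7, SD, n = 85), the testis tubulin Tuba3b (45.8% ± 21.01) and the X-linked Usp26 (43.8% ± 25.7, n = 68), all above the mean of Taf7l. The lowest were Syce2, of the synaptonemal complex (2.13% ± 1.59), and the meiotic cohesin genes Stag3 (2.60% ± 2.53) and Smc1b (2.94% ± 2.93), all below the mean of Tex19.1 (SD, n = 85 each).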

How the data were processed

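Methylation of genomic DNA was assayed by enzymatic conversion and target capture, per the labels' protocols. The authors deposited region averages and CpG values as fractions (beta values), 1 table each. Trim Galore 0.6.4, Bismark, Bowtie2 and mm10 are named in the submitters' processing notes; the sources used here give no settings. Coverage was filtered at 10, per the deposited tables' names. No read counts are given, so depth and counting error are unknown.

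Of the 85 columns, 44 matched 1 title and 41 only a prefix (16 of lines with 2 titles, 24 with a final N that the title lacks, 1 without a title). No columns were identical. No label says whether cultures were separate, so p-values measure the spread between columns. Fractions are given in percent. Regions were kept where 80% or more of the columns had a value, and CpG values had none missing. Prefixes were compared with limma 3.58.1 in R 4.3.3 on log2((f + 0.01)/(1 - f + 0.01)), where f is the fraction, with Benjamini-Hochberg adjustment over all regions or CpGs and a threshold of 0.05. Levels and correlations were tested by 100000 two-sided permutations (NumPy 2.4.6, SciPy 1.17.1), adjusted over all 787 regions in place of the members alone as first planned. The code was tested on simulated data. Alternatives were another offset and missing-value filter, fractions as deposited, line level as a covariate, centring by line, region averages recomputed from CpGs, residuals centred within prefix, columns without a final N and lines without 2 titles. All members were named, and for each the 3 most alike regions were found in percent and in residuals. From the germline lists the 3 highest and 3 lowest regions were named, and the highest and lowest CpG of each member. The members, lists and tests were chosen with earlier results of these data known. The promoter sequences are from RefSeq (GRCm38.p6).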

Additional observations from a re-analysis of the deposited data

Results flagged for a closer look

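Tex19.1 differed between prefixes at a given line level (limma F test, adjusted p = 0.00732), where the other members did not pass the threshold. None of the 10 measured Tex19.1 CpGs passed it with the line level as a covariate. When the line level was subtracted in place of being fitted, the difference between member and line level itself varied over the prefixes at 3 members by the same test. At Tex19.1 (adjusted p = 3.34e-05) the mean difference was -18.3 points for B1, -14.6 for B2, -7.53 for B3A and -7.77 for B3B. At Ddx4 (adjusted p = 3.56e-04) it was -12.99 points for B1, -9.80 for B2, -5.01 for B3A and -7.11 for B3B. At Mael (adjusted p = 4.44e-04) it was -9.74 points for B1, -6.12 for B2, -2.62 for B3A and -3.91 for B3B. These are the 3 members with the lowest slopes on the line level, and 77.3% of all regions were called in that fit. Line levels differed between prefixes, so subtracting them leaves a prefix difference at a member with a slope well below 1. The subtraction is therefore no separate support for a difference at these members. In the limma fit with the covariate Ddx4 (adjusted p = 0.563) and Mael (0.211) were not called.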

How the results depend on the processing

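With the line level as a covariate, the regions called between prefixes numbered 27, the members 1, all CpGs 14, member CpGs 0 and member contrasts 1, beside 15 without it. In that fit 35 of the 48 member contrasts changed sign, among them 12 of the 15 called ones. Of those 15, B1 minus B3A turned negative at Dazl (-0.21 in log2 odds), Ddx4 (-0.19), Mael (-0.33), Mov10l1 (-0.12), Slc25a31 (-0.34) and Taf7l (-0.27). So did B1 minus B3B at Dazl (-0.15), Mov10l1 (-0.028), Slc25a31 (-0.13) and Taf7l (-0.0066), and B2 minus B3A at Ddx4 (-0.062) and Piwil2 (-0.066), none of these past the threshold. Centring by line left 3 members called, against 77.3% of all regions. Without the final N columns, 1801 CpGs and 24 member CpGs were called, and in lines without 2 titles 2314 and 28; the cause was not tested, and both sets hold fewer columns. Averages recomputed from CpGs exist for 6 members and so for 15 pairs, and all 15 differed in level there, Dazl with Mov10l1 among them. Dazl minus Mov10l1 was -0.21 points in lines without 2 titles. Pairs with correlated residuals numbered 2 in recomputed averages and 0 without the final N columns. They numbered 3 in lines without 2 titles and 3 against the germline_Dahlet mean. Slc25a31 with Taf7l could not be tested in recomputed averages, which Taf7l lacks. The cause of these changes was not tested. On log odds, chosen after seeing the data, Mael was 0.11 and Piwil2 0.50 above the line level. Mael passed between prefixes in 4 settings, with adjusted p-values of 4.44e-04 after centring by line, 0.0494 over regions with a value in every column, 0.0183 in recomputed averages and 0.0471 without the column that matches no title, an alternative also added after seeing the data. The coverage minimum could not be varied, and a missing-value filter could not change the CpG counts, since no CpG value is missing. No paired analysis was possible because the labels give no replicate numbers shared between prefixes. Depth is unknown, which limits every level near 0.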
